A study of Mus musculus with 16 samples.

Results

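Potassium channel genes were followed in RNA from cortex and striatum of 10-day-old mice, with the histone acetyltransferase cofactor Trrap deleted in forebrain neurons or kept on 1 allele. The 72 genes were chosen by name and level: they are protein-coding, their symbol starts with Kcn and a family letter, and their raw counts reach an average of at least 50 over the 16 libraries. Of the 53801 genes in the count table, 89 fitted the name, and 17 of these fell under the count minimum. Kcnip1 to Kcnip4, which encode cytosolic proteins that bind channels and no channel family of their own, were counted as partners and not as members. Closest above the minimum were Kcne4, Kcng3 and Kcne2, with averages of 60.31, 67.62 and 71.94 counts. Closest below it were Kcnq1, Kcnmb1 and Kcnk5, with 47.88, 37.75 and 23.31 counts. The mean count over all libraries selected the members without use of the genotype or tissue labels, so a gene high in a single tissue could pass through that tissue. In each of the 4 groups taken alone, 69 of the 72 members also averaged at least 50 counts. The exceptions were Kcne2 and Kcne4, which were under the minimum in both cortical groups, and Kcnh8, which averaged 34.2 counts in the Trrap-FBΔ cortex and 55.5, 185 and 148 counts in the control cortex, the control striatum and the Trrap-FBΔ striatum.

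The mice were of the mixed strain C57BL6/J-129sv. Controls had the genotype Trrap Fl/+; Camk2-Cre tg, and the mutants, called Trrap-FBΔ, had the genotype Trrap Fl/Fl; Camk2-Cre tg, so the Cre transgene was present in both groups and control cells with Cre could lose 1 Trrap allele. The Camk2 promoter drives Cre in excitatory forebrain neurons, and the tissue RNA also holds cells without Cre. Each group had 4 libraries from 9 mice in all, and 7 mice gave both tissues. Females gave 2 of the 4 control cortices, 1 of the 4 control striata and 3 of the 4 libraries in either Trrap-FBΔ group.

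Potassium channels set the resting potential of neurons, end the action potential and limit repetitive firing, and in glia they clear the potassium that neurons release. Voltage-gated families (Kcna to Kcnd, Kcnh and Kcnq) open on depolarization, and the silent subunits (Kcnf, Kcng, Kcns and Kcnv) form no channel alone but alter those made with Kcnb subunits. Inward rectifiers (Kcnj) and K2P leak channels (Kcnk) act near rest, calcium-activated (Kcnm, Kcnn) and sodium-activated (Kcnt) channels follow ion entry, and Kcnab and Kcne encode auxiliary subunits.

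The libraries held 28743866 to 48761429 counted reads. Levels are given as CPM, counts per 1000000 reads of a library after TMM normalization over all libraries, and a gene was called at a Benjamini-Hochberg adjusted p under 0.05 over all genes tested, from edgeR's quasi-likelihood test. Trrap itself was at 136 to 173 CPM in control cortices and 121 to 146 CPM in Trrap-FBΔ cortices, and at 140 to 151 and 135 to 148 CPM in the striatal groups. It was called in neither tissue (log2 fold change -0.18 and -0.04), and counts over the whole gene include exons outside the floxed part, so group names follow the labels. The study reports efficient loss of Trrap in these brains at this age, from protein and qPCR measurements. The tissue labels were checked against marker genes. The summed level of 9 genes of striatal projection neurons was 369 to 987 CPM in control cortices and 305 to 1497 CPM in control libraries labelled striatum, and 1 of the 9 was called higher in the latter. In contrast, the summed level of 3 thalamic genes (Tcf7l2, Gbx2 and Lhx9), chosen after the values were seen, was 8.44 to 20.5 CPM in control cortices and 119 to 192 CPM in control libraries labelled striatum. That of 3 hypothalamic genes was 4.49 to 8.07 and 75.9 to 105 CPM. By these markers, the libraries labelled striatum differ from cortex in genes of deeper regions more than in striatal genes, whose lowest and highest sums are in the control striata of mice 58 and 64. The 6 genes of cortical excitatory neurons summed to 293 to 513 CPM in control striata and to 190 to 299 CPM in Trrap-FBΔ striata. These groups overlapped narrowly, and 4 of the 6 genes were called lower. In the cortex, the sums were 1390 to 1796 and 1568 to 1693 CPM. The thalamic genes summed to 193 to 242 CPM in Trrap-FBΔ striata, above every control striatum, and 2 of the 3 were called higher. The hypothalamic sums, 92.4 to 117 CPM, overlapped those of controls. Cortical and thalamic levels thus both moved with the genotype in this tissue, and the part of the thalamic level in the striatal calls was not tested. On the first principal component of all genes, the control striata of mice 63 and 64, at 22.46 and 25.82, lay nearer to the cortices than the other striata, at 40.48 to 59.85.

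**Figure D1:**
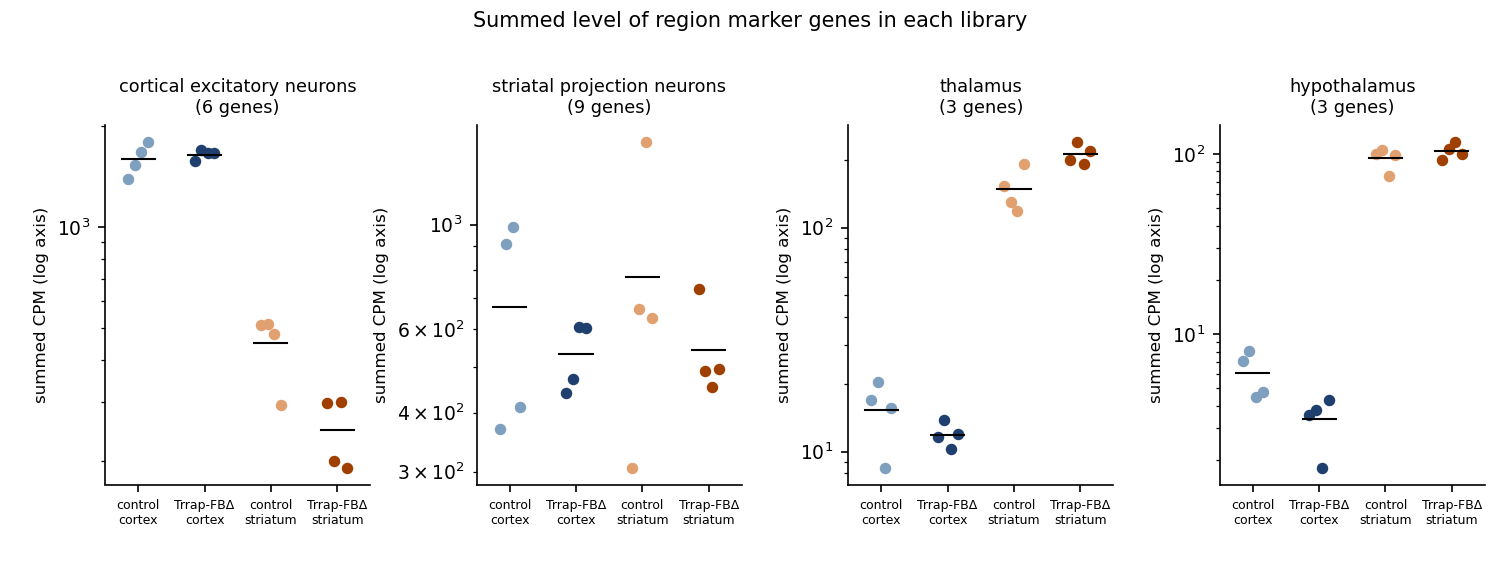
Summed CPM (log axis) of marker genes in each library, by group, where points are libraries and bars are group means. Thalamic and hypothalamic genes were low in cortices and high in libraries labelled striatum, and striatal genes overlapped between the tissues. Cortical genes were at 293 to 513 CPM in control striata against 190 to 299 CPM in Trrap-FBΔ striata, and thalamic genes at 119 to 192 against 193 to 242 CPM.

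In both tissues, potassium channel genes were lower in Trrap-FBΔ mice more often than higher. In the cortex, 27 of the 72 members (37.5%) were called lower, where 17.6% of the 18268 genes tested were, and 5 members (6.94%) were called higher, where 15.7% of all genes were. In the libraries labelled striatum, 29 members (40.3%) were called lower against 15.8% of 18872 genes, and 2 members (2.78%) were called higher against 14.4%. Of the protein-coding genes that reach 50 counts as the members do, 21.2% (cortex) and 19.1% (striatum) were lower. The median log2 fold change of the members was -0.14 in cortex and -0.26 in striatum, while that of these coding genes was -0.01 and -0.02. The 4 Trrap-FBΔ libraries lay below all 4 control libraries for 22 members in cortex and 27 in striatum (16.7% and 16.0% of all genes). In bulk tissue, fewer cells of a type and less RNA per cell cannot be told apart.

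A common set of 21 members was called lower in both tissues, where 10.5% of 17938 genes tested in both were. No member was called higher in both by edgeR or by DESeq2, where 8.47% of all genes were in edgeR, and 1 was higher in both at an unadjusted p under 0.05. None was called in opposite directions. A further 11 members were called in the cortex but not in the striatum, 10 in the striatum but not in the cortex, and 30 in neither. The tissues came largely from the same mice and are not independent. With sex as a covariate, 13 of the 21 were lower in both tissues, and Kcnab1, Kcnd1, Kcnd2, Kcnh4, Kcnh7, Kcnj16, Kcnk2 and Kcnq3 lost a call. With each library left out in turn, 21 of the 32 cortical calls and 23 of the 31 striatal calls held in every run.

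**Figure D2:**
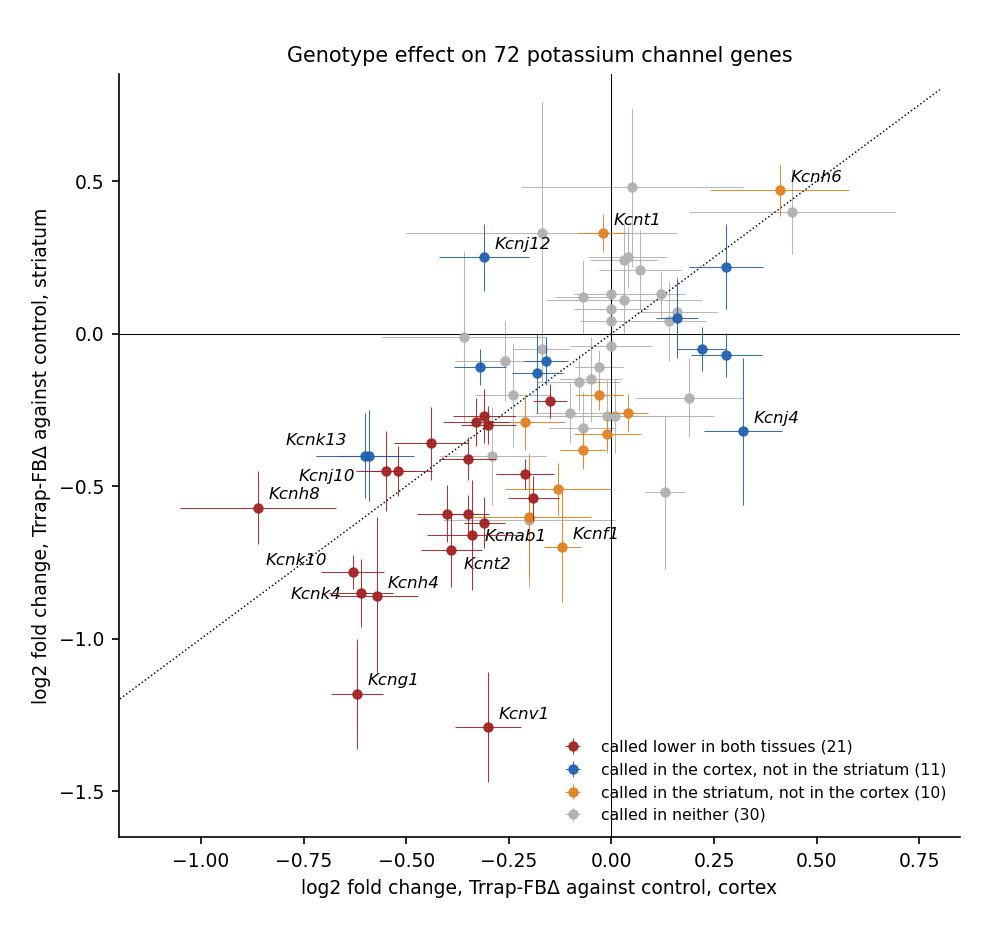
Log2 fold change of each of the 72 members in Trrap-FBΔ against control mice, cortex on the x axis and libraries labelled striatum on the y axis, with standard errors as bars and the line of equal change dotted. The 21 members called lower in both tissues (dark red) lie at the lower left, led by Kcng1 and Kcnv1, and the upper right holds no member called in both.

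The largest falls common to both tissues were those of Kcng1, Kcnv1, Kcnk4, Kcnh8 and Kcnh4. Kcng1 (ENSMUSG00000074575, chr2:168260117-168281736 of GRCm38, minus strand), a silent subunit, was at 62.7, 69.8, 65.7 and 74.2 CPM in control cortices (mice 55, 58, 63 and 64), and at 42.6, 42.9, 43.3 and 48.9 CPM in the Trrap-FBΔ cortices of mice 57, 59, 60 and 61. Striatal levels were 27.9, 23.2, 34.0 and 23.9 CPM for controls 58, 63, 64 and 65, against 16.1, 9.21, 12.8 and 9.78 CPM in the mutants. All mutant libraries were below all controls in both tissues, with log2 fold changes of -0.62 (SE 0.063, adjusted p = 6.4e-05) and -1.18 (SE 0.18, adjusted p = 0.0012). These are means of 68.1 ± 5.03 and 44.4 ± 3.03 CPM in the cortex and 27.3 ± 4.97 and 12 ± 3.17 CPM in the striatum (SD, n = 4 each).

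Kcnv1 (ENSMUSG00000022342, chr15:45106284-45114920, minus strand) encodes another silent subunit and fell most in the striatum. It was at 97.7, 105, 131 and 98.9 CPM in control cortices and at 89.2, 87.5, 90.0 and 85.6 CPM in Trrap-FBΔ cortices. The striatal values were 32.7, 44.6, 43.7 and 26.6 CPM in controls and 17, 12.8, 17.7 and 12.6 CPM in mutants. The groups did not overlap in either tissue, and the log2 fold change was -0.30 (SE 0.081, adjusted p = 0.015) in the cortex and -1.29 (SE 0.18, adjusted p = 0.00069) in the striatum. Control cortex 63 was the highest library by far, and without control cortices 58 and 63 the cortical value was -0.16 (adjusted p = 0.052).

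Kcnk4 (ENSMUSG00000024957, chr19:6923966-6934515, minus strand), the mechanosensitive K2P channel TRAAK, was at 12.3, 13.9, 14.8 and 15.5 CPM in control cortices and at 9.23, 9.16, 9.17 and 9.59 CPM in Trrap-FBΔ cortices. Striatal levels were 6.27, 5.81, 4.87 and 4.73 CPM in controls and 2.95, 3.05, 2.91 and 3.10 CPM in mutants. The mutant libraries were close to one another and below every control, with log2 fold changes of -0.61 (SE 0.077, adjusted p = 0.00021) and -0.85 (SE 0.11, adjusted p = 0.00057). Its exons share 587 bases on the same strand with the neighbouring gene Catsperz, whose reads could not be told apart there. Kcnk10, a K2P channel of the TREK type, fell by a similar amount, with log2 fold changes of -0.63 (SE 0.077, adjusted p = 0.00017) and -0.78 (SE 0.056, adjusted p = 5.8e-05).

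Kcnh8 and Kcnh4 encode ELK channels, which open close to the resting potential. Kcnh8 (ENSMUSG00000035580, chr17:52602709-52979194, plus strand) was weakly expressed, at 1.54, 1.82, 1.40 and 1.27 CPM in control cortices and 0.732, 0.921, 0.653 and 1 CPM in Trrap-FBΔ cortices, and at 4.22, 5.35, 5.18 and 4.23 CPM in control striata and 3.17, 3.33, 2.77 and 3.49 CPM in the mutants. It was lower in all mutant libraries of both tissues, by a log2 fold change of -0.86 (SE 0.19, adjusted p = 0.0047) and -0.57 (SE 0.12, adjusted p = 0.0054). Kcnh4 (ENSMUSG00000035355, chr11:100740376-100759942, minus strand) was at 13.3, 18.0, 17.1 and 13.7 CPM in control cortices and at 9.82, 10.0, 10.7 and 11.4 CPM in Trrap-FBΔ cortices, without overlap (log2 fold change -0.57, SE 0.10, adjusted p = 0.0017). Without control cortices 58 and 63, the cortical value was -0.37 (adjusted p = 0.019). Striatal levels were 5.35, 8.87, 14.5 and 7.09 CPM in controls and 6.28, 4.42, 4.58 and 4.51 CPM in mutants. These groups overlapped, and the log2 fold change of -0.86 (SE 0.26, adjusted p = 0.033) became -0.34 without control striata 63 and 64 (adjusted p = 0.17). Kcnh4 is high in control cortices 58 and 63 and in control striatum 64, the libraries with the most striatal marker RNA, and the part of that RNA in its fall was not tested.

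**Figure D3:**
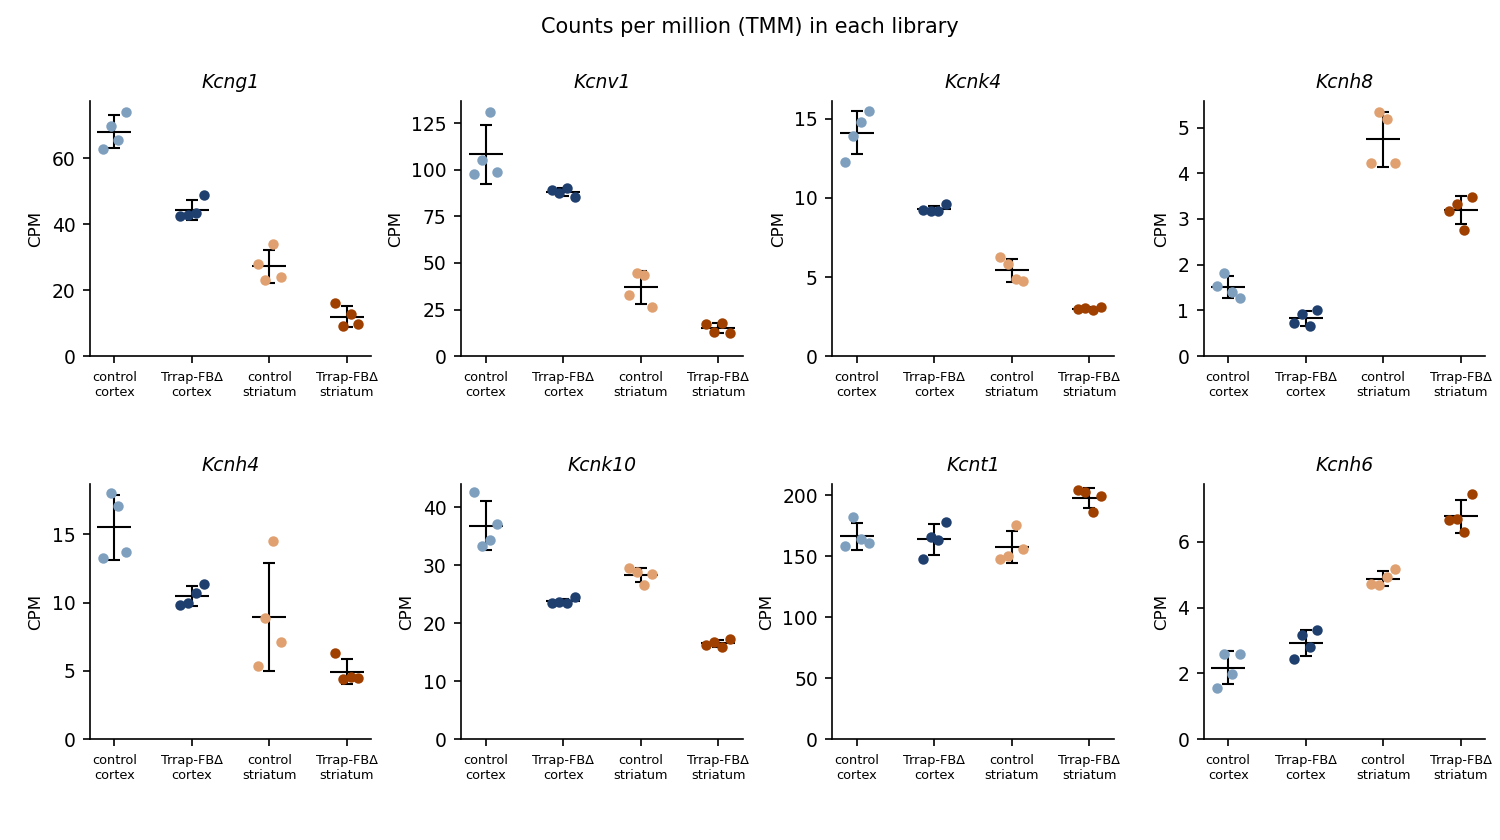
CPM of 8 members in each library, by group, with the group mean and SD (n = 4) in black and the y axis from 0. Kcng1, Kcnv1, Kcnk4 and Kcnk10 are lower in all Trrap-FBΔ libraries of each tissue, Kcnh8 is higher in striatum than in cortex, Kcnt1 and Kcnh6 are higher in Trrap-FBΔ striata, and the Kcnh4 groups overlap in the striatum.

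The level of cortical excitatory neuron genes, which was lower in Trrap-FBΔ striata, was also entered as a covariate, an alternative chosen after seeing the data. With it, 18 members were called in the striatum, all lower, and 15 of them were among the 31 called without it. Over all 18872 genes tested, 1775 were called with the covariate and 5704 without it. The covariate itself differed between the genotypes, so this fit cannot fully separate the 2. Of the 21 members lower in both tissues, 13 were still called. The log2 fold change was -0.88 for Kcng1 (adjusted p = 0.047), -0.73 for Kcnv1 (adjusted p = 0.016), -0.72 for Kcnk4 (adjusted p = 0.029) and -0.82 for Kcnk10 (adjusted p = 0.0032). It was -0.54 for Kcnh8 (adjusted p = 0.10) and -0.55 for Kcnh4 (adjusted p = 0.41), which were then not called.

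The promoters of members that fell in both tissues are shown next to those of members that differed between tissues and not between genotypes. They are the 250 bases before the RefSeq start on the GRCm38.p6 assembly, 5′ to 3′ on the strand of the gene, and capitals mark the GC box GGGCGG or its reverse complement CCGCCC, the element that Sp factors bind. For Kcnk4 and Kcnh8, and for Kcnk2 and Kcna4 as the next falls in both tissues with a listed promoter free of annotated transcript, they read as follows.
Kcnk4, chr19:6934516-6934765, minus strand: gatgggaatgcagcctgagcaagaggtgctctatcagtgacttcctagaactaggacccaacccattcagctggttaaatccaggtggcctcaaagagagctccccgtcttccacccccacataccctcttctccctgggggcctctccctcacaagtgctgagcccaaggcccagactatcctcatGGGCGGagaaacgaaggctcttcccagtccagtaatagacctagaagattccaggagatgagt
Kcnh8, chr17:52602459-52602708, plus strand: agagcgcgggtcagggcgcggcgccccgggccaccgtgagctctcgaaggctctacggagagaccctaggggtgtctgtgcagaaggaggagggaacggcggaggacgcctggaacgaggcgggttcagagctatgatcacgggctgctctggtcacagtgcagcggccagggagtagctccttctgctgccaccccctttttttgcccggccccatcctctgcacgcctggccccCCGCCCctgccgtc
Kcnk2, chr1:189402274-189402523, minus strand: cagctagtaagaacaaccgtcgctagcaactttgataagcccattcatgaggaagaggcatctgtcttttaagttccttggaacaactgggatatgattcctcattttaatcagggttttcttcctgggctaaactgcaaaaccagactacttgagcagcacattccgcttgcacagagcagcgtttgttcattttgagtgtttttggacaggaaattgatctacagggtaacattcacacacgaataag
Kcna4, chr2:107290339-107290588, plus strand: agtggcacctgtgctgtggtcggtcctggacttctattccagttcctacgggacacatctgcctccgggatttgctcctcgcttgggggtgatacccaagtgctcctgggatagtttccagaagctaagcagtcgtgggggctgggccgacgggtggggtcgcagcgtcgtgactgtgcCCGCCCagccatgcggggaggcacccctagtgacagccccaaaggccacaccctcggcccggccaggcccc
Kcnh5 and Kcng4, with large tissue differences and no genotype call, have these promoters.
Kcnh5, chr12:75177333-75177582, minus strand: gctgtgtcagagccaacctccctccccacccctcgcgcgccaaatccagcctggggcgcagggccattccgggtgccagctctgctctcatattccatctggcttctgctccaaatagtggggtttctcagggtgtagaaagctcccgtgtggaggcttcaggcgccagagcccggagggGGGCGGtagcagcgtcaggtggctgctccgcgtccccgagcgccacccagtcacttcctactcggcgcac
Kcng4, chr8:119635681-119635930, minus strand: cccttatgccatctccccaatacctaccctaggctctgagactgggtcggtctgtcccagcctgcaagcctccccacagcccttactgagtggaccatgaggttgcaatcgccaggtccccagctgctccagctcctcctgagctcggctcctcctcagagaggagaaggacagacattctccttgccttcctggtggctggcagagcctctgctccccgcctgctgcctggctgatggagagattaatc

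A GC box was present once in the promoters of Kcnk4, Kcnh8, Kcna4 and Kcnh5, at 63, 14, 71 and 70 bases before the start, and not in those of Kcnk2 and Kcng4. Of the 72 members, 51 had a listed promoter, and 27 of these (52.9%) held at least 1 GC box, against 32.7% of all 32851 promoters listed. The member set holds 1 promoter a gene, while the full list was neither reduced in this way nor matched for expression, so the sets differ in kind. The box was in 7 of 14 promoters of members lower in both tissues and in 15 of 21 of members called in neither. The median GC content was 61.6% in the member promoters and 52.4% in all promoters. Kcng1 and Kcnv1 were not matched in this list.

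Among the pore-forming families of the classical voltage-gated type, 4 of the 15 members of Kcna to Kcnd were lower in both tissues. Kcna4, an A-type subunit, was lower by -0.40 and -0.59 on the log2 scale (cortex and striatum, adjusted p = 0.0018 and 0.0016). Kcna2 and Kcna6 were called lower in the cortex (-0.18 and -0.16) with overlapping groups and not in the striatum. Kcnb2 was lower in both tissues (-0.35 and -0.41, adjusted p = 0.0031 and 0.0023). The fast-spiking Kcnc family had no common change. Kcnc2 was lower in the striatum (-0.26, adjusted p = 0.01).

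Of the Kcnd family, which carries the somatodendritic A-type current, Kcnd1 and Kcnd2 had the smallest common falls. Kcnd2 was at 128, 131, 128 and 134 CPM in control cortices and at 113, 123, 120 and 116 CPM in Trrap-FBΔ cortices, and at 138, 133, 152 and 153 CPM in control striata and 119, 131, 123 and 122 CPM in mutants. The groups did not overlap, and the log2 fold changes were -0.15 (SE 0.042, adjusted p = 0.02) and -0.22 (SE 0.056, adjusted p = 0.014). Kcnd1 was at 15.4 to 17.6 CPM in control and 12.4 to 15.3 CPM in Trrap-FBΔ cortices (-0.31, adjusted p = 0.01), and at 13.6 to 17 and 11.6 to 13.7 CPM in the striatal groups (-0.27, adjusted p = 0.043), which overlapped. Kcnd3 was not called in either tissue.

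The silent subunits formed the family with the lowest striatal median, -0.60 on the log2 scale, against -0.24 in the cortex, and all 9 members had negative values in both tissues. Kcng1, Kcnv1 and Kcns2 were called lower in both, and Kcnf1 and Kcng3 were called lower in the striatum. Kcns2 fell by a log2 fold change of -0.35 (SE 0.052, adjusted p = 0.00054) and -0.59 (SE 0.06, adjusted p = 0.0002). Kcnf1, the most abundant member per length in all groups, was at 146 to 161 CPM in control and 136 to 146 CPM in Trrap-FBΔ cortices (-0.12, adjusted p = 0.062). In the striatum, Kcnf1 lay at 46.8 to 76.6 CPM in controls and 28.6 to 45.1 CPM in mutants (-0.70, adjusted p = 0.015). With the cortical marker level as a covariate, the striatal value of Kcnf1 was -0.27 (adjusted p = 0.42). The summed level of the family was 85.1 ± 4.29 CPM per kilobase in control cortices and 70.7 ± 0.506 in Trrap-FBΔ cortices, and 38.6 ± 4.59 and 22.5 ± 2.57 in the striatal groups (SD, n = 4 each). These sums did not overlap between genotypes.

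In the Kcnq family, whose members carry the M current that restrains repetitive firing, all 4 members were lower in the striatum and 3 in the cortex. Kcnq5 fell in both tissues (-0.31 and -0.62, adjusted p = 0.00081 and 0.00066). Kcnq3 was at 358, 319, 367 and 369 CPM in control cortices and at 267, 315, 317 and 321 CPM in Trrap-FBΔ cortices, where the groups overlapped (-0.21, SE 0.071, adjusted p = 0.037). Striatal levels of Kcnq3 were 220, 194, 205 and 200 CPM in controls and 148, 153, 145 and 148 CPM in mutants (-0.46, SE 0.049, adjusted p = 0.00023), without overlap. The cortical call of Kcnq3 was lost in 8 of 16 alternatives. The sum of the family was 72 ± 3.05 and 63.2 ± 3.24 CPM per kilobase in the cortical groups and 45.2 ± 1.53 and 35 ± 0.678 in the striatal groups, again without overlap.

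In the Kcnh family, the ELK genes Kcnh4 and Kcnh8 and the ERG gene Kcnh7 were lower in both tissues. Kcnh7 had log2 fold changes of -0.19 and -0.54 (adjusted p = 0.04 and 0.00074). Its relative Kcnh6 was one of the 2 members that rose in the striatum. It was at 4.72, 4.68, 4.92 and 5.18 CPM in controls and 6.67, 6.69, 6.29 and 7.47 CPM in mutants (0.47, SE 0.084, adjusted p = 0.0026), above every control. In the cortex it was at 1.57, 2.60, 1.97 and 2.58 CPM in controls and 2.43, 3.18, 2.79 and 3.32 CPM in mutants, with a log2 fold change of 0.41 that was not called (adjusted p = 0.081). The EAG genes Kcnh1 and Kcnh5 and the ERG gene Kcnh2 were not called in either tissue.

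**Figure D4:**
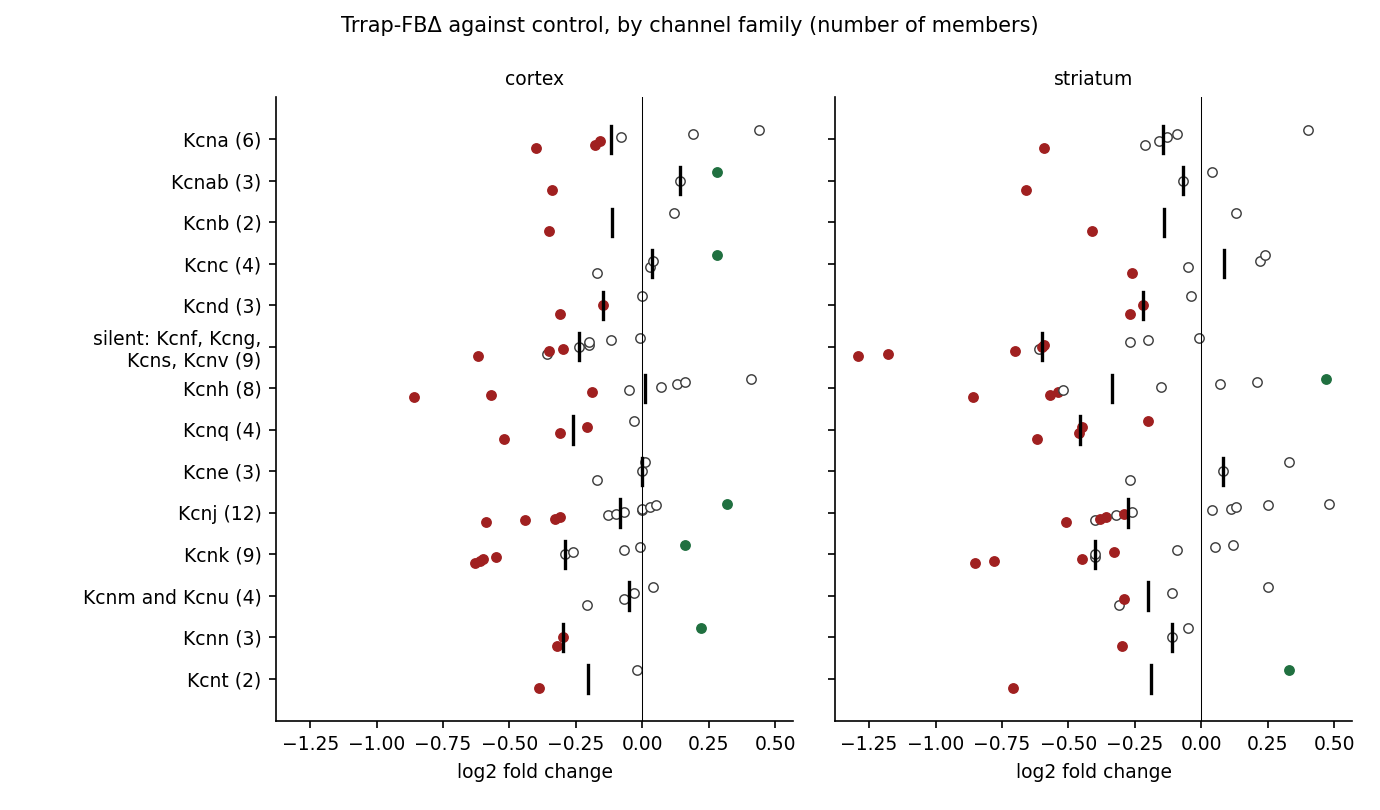
Log2 fold change of each member in Trrap-FBΔ against control mice, by channel family, for the cortex and the libraries labelled striatum. Red points were called lower, green points higher and open points not called, and vertical bars are family medians. The silent and Kcnq families lie left of 0 in both panels, and the Kcne family has no called member.

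Auxiliary subunits moved in single genes. Kcnab1 was lower in both tissues (-0.34 and -0.66, adjusted p = 0.028 and 0.019), with -0.15 in the cortex without control mice 58 and 63 (adjusted p = 0.25) and -0.41 in the striatum without 63 and 64 (adjusted p = 0.042). Kcnab2 was higher in the cortex, from 101 to 143 CPM in controls to 148 to 162 CPM in mutants (0.28, adjusted p = 0.026). Exons of Kcnab2 share 125 bases with Gm16334 on the same strand. None of the 3 Kcne members was called by edgeR in either tissue, and 1 striatal value, that of Kcne4, was under 0.05 before adjustment. Kcne2, which is abundant in choroid plexus, had the widest standard errors (0.33 and 0.43), and the summed choroid plexus genes varied between 117 and 735 CPM over the libraries.

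The inward rectifiers comprise channels of neurons, glia and vessels. Kcnj10, the glial potassium-buffering channel, was at 299, 260, 265 and 276 CPM in control cortices and at 204, 195, 169 and 163 CPM in Trrap-FBΔ cortices (-0.59, SE 0.076, adjusted p = 0.00023). Its striatal levels were 406, 262, 314 and 391 CPM in controls and 242, 319, 207 and 271 CPM in mutants (-0.40, SE 0.15, adjusted p = 0.074), with overlap. Its striatal value was -0.62 without control striata 63 and 64 (adjusted p = 0.01) and -0.74 with the cortical marker level (adjusted p = 0.046). With sex as a covariate, it was -0.38 (adjusted p = 0.21). Its heteromer partner Kcnj16 was called lower in both tissues (-0.44 and -0.36, adjusted p = 0.0036 and 0.041). The sum of 7 astrocyte genes was 5193 to 5489 CPM in control and 5136 to 5769 CPM in Trrap-FBΔ cortices, with 2 genes called higher and 2 lower, and it overlapped between these groups. The striatal sums were 4168 to 4548 and 3805 to 4117 CPM, lower in all mutants, while of the 7 genes 2 were called higher (Gfap and Gja1) and 1 lower (Slc1a2), with a median log2 fold change of -0.07. Of the oligodendrocyte genes, all 4 of precursors and all 6 of mature cells were called lower in the cortex. In the striatum, 2 of the precursor genes and none of the mature genes were. The part of these glial cells in the falls of Kcnj10 and Kcnj16 was not tested.

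Kcnj8, the pore of the vascular KATP channel, had one of the smallest common falls. It was at 7.60, 7.22, 6.83 and 6.51 CPM in control cortices and at 5.85, 5.64, 5.46 and 5.36 CPM in Trrap-FBΔ cortices (-0.33, SE 0.081, adjusted p = 0.0088). The striatal values were 7.21, 6.69, 6.29 and 6.50 CPM in controls and 5.37, 5.73, 5.29 and 5.51 CPM in mutants (-0.29, SE 0.078, adjusted p = 0.02), again without overlap. Mural cell genes summed to 330 to 410 and 264 to 328 CPM in the cortical groups and to 358 to 422 and 270 to 346 CPM in the striatal groups. Of these 5 genes, 3 were called lower in the cortex and 1 in the striatum (median log2 fold change -0.22 and -0.09). In the striatum, the mean of Rgs5 was 257 CPM in controls and 176 CPM in mutants. Cspg4 (35.9 and 28.7 CPM) and Pdgfrb (31.5 and 29.5 CPM) were also lower, and Vtn (53.8 and 61.6 CPM) and Acta2 (15.5 and 17.3 CPM) higher. Endothelial genes summed to 261 to 301 and 210 to 225, and 208 to 267 and 179 to 214 CPM. All 5 were called lower in the cortex and 2 in the striatum. The part of these cells in the fall of Kcnj8 was not tested.

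Of the G protein-gated members, Kcnj3 and Kcnj6 were lower in the striatum (-0.38 and -0.51, adjusted p = 0.0018 and 0.0019) and not called in the cortex, while Kcnj5 and Kcnj9 were called in neither. Among strong inward rectifiers, Kcnj4 was higher in the cortex, at 54.1, 77.2, 76.0 and 74.4 CPM in controls and 86.4, 83.8, 86.4 and 95.4 CPM in mutants (0.32, adjusted p = 0.023). In the striatum, its log2 fold change of -0.32 was not called (adjusted p = 0.34). Kcnj12 was lower in the cortex (-0.31, adjusted p = 0.047) and had a value of 0.25 in the striatum (adjusted p = 0.094).

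Among the K2P leak channels, the mechanosensitive subgroup of Kcnk2, Kcnk4 and Kcnk10 was lower in both tissues in all 3 members. Kcnk2 fell by -0.55 (SE 0.071, adjusted p = 0.00022) and -0.45 (SE 0.13, adjusted p = 0.023). Its striatal value was -0.43 with sex as a covariate (adjusted p = 0.071), -0.32 with the cortical marker level (adjusted p = 0.31) and -0.22 without control striata 63 and 64 (adjusted p = 0.048). Kcnk9, the most abundant of the family by counts, rose in the cortex (0.16, adjusted p = 0.037) with overlapping groups, and Kcnk1 fell in the striatum (-0.33, adjusted p = 0.0012). Kcnk13, which microglia use as a resting conductance, was at 3, 3.88, 3.43 and 3.10 CPM in control cortices and 2.17, 2.18, 2.22 and 2.31 CPM in Trrap-FBΔ cortices (-0.60, SE 0.12, adjusted p = 0.0025), with a striatal value of -0.40 (adjusted p = 0.058). All 6 microglial marker genes were also lower in the cortex, with a summed level of 256 to 289 CPM in controls and 182 to 231 CPM in mutants, and their part in the fall of Kcnk13 was not tested.

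Among the calcium-activated channels, Kcnma1, the pore of the BK channel and the most deeply counted member with an average of 14493 counts, was not called in either tissue (-0.03 and -0.11), and its subunit Kcnmb2 was lower in the striatum (-0.29, adjusted p = 0.032). All 3 SK genes were called in the cortex, Kcnn1 and Kcnn3 lower (-0.32 and -0.30, adjusted p = 0.0026 and 0.006) and Kcnn2 higher (0.22, adjusted p = 0.016). Kcnn3 was at 49.7, 51.3, 42.3 and 45.3 CPM in control cortices and 35.7, 39.7, 38.6 and 39.7 CPM in mutants, and at 74.5, 64.6, 71.5 and 78.9 CPM in control striata and 60.9, 57.2, 60.4 and 56.9 CPM in mutants. It was lower in all mutant libraries of both tissues, and its striatal log2 fold change was -0.30 (SE 0.062, adjusted p = 0.0055).

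The sodium-activated channels Kcnt1 and Kcnt2 went different ways in the striatum. Kcnt1 was at 148, 150, 176 and 156 CPM in controls and at 204, 203, 186 and 199 CPM in mutants, above every control (0.33, SE 0.061, adjusted p = 0.0032). In the cortex it was at 158 to 182 and 148 to 178 CPM and was not called (-0.02, adjusted p = 0.83). Kcnt2 was lower in both tissues (-0.39 and -0.71, adjusted p = 0.0021 and 0.0023). With the cortical marker level as a covariate, the striatal values of Kcnt1 and Kcnh6 were 0.31 and 0.32, and neither was called (adjusted p = 0.078 and 0.11).

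The difference of the genotype effect between tissues was tested with an interaction term. It was called for 1 of 72 members (1.39%), where 0.437% of the 19438 genes tested were called. This member was Kcnv1, with a difference (striatum minus cortex) of -1.0 on the log2 scale (adjusted p = 0.042). Of 23 alternatives, 14 did not call it, and its adjusted p ranged from 0.0005 to 0.11. With the mouse as a block, 2 members were called, Kcnv1 (-1.09, adjusted p = 0.019) and Kcnj12 (0.72, adjusted p = 0.025). With the block and sex within each tissue, edgeR called none, and 21 members had an unadjusted p under 0.05. The next smallest p were those of Kcnt1 (0.35, adjusted p = 0.1), Kcnc2 (-0.29, adjusted p = 0.11) and Kcnj3 (-0.30, adjusted p = 0.13). Kcnc2 was at 75.6, 75.7, 65 and 76.7 CPM in control striata and 62.4, 63.6, 61.6 and 57.6 CPM in mutants, with 73 to 81.2 and 76.9 to 84.6 CPM in the cortical groups. Kcnj3 was at 78.2, 78.5, 67.2 and 77.6 CPM in control striata and 58.4, 60.2, 60 and 53.9 CPM in mutants, with 120 to 137 and 110 to 126 CPM in the cortical groups. DESeq2 called the interaction for 5 members, Kcnv1, Kcnt1, Kcnc2, Kcnj12 and Kcnh7. The difference for Kcnv1 lay beside the lower cortical marker level of Trrap-FBΔ striata, whose part was not tested.

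Between tissues, members were lower in the libraries labelled striatum more often than higher. In controls, 31 of 72 were called lower (43.1%) against 20.1% of 18284 genes, and 14 higher (19.4%) against 20.3%. In Trrap-FBΔ mice, 40 were lower (55.6%) against 27.4% of 18872 genes, and 22 higher (30.6%) against 27.4%. The higher calls include Kcne4 and Kcnh8 in both genotypes and Kcne2 in Trrap-FBΔ mice. These members passed the count minimum with the help of the striatal libraries, so their higher calls are not independent of the choice of members. The calls had the same direction in both genotypes for 44 members, 18 were called only in Trrap-FBΔ mice, 1 only in controls and none in opposite directions. Over all genes, 7380 of 18284 were called in controls and 10329 of 18872 in Trrap-FBΔ mice. A call in 1 genotype only is not a difference between genotypes, and the interaction was called for 1 member. Without the mouse as a block, these tests treat the tissues of 1 mouse as separate. With the block, 44 and 62 members were called.

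In controls, the lowest and the highest tissue difference, those of Kcnh3 and Kcnh8, were in the Kcnh family. All 8 of its members were called in both genotypes, 5 lower and 3 higher in the libraries labelled striatum. Kcnh3, an ELK channel of cortical and hippocampal pyramidal cells, was at 130, 137, 137 and 142 CPM in control cortices and 35.8, 50.4, 59.1 and 30.4 CPM in control striata (-1.64, SE 0.17, adjusted p = 5.2e-05). Kcnh5 was at 21.5, 16.3, 22.3 and 18.3 CPM and at 5.32, 8.12, 7.29 and 6.43 CPM (-1.52, SE 0.14, adjusted p = 2e-05). In contrast, Kcnh8 was higher in the striatum by 1.65 (SE 0.15, adjusted p = 1.9e-05) and Kcnh6 by 1.15 (SE 0.15, adjusted p = 0.0002).

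Outside this family, Kcnv1 (-1.55, adjusted p = 4.3e-05) and Kcnf1 (-1.42, adjusted p = 2.2e-05) were among the members most enriched in the cortex. Both stood highest in the cortex in each genotype without overlap. Kcnj5, a G protein-gated subunit, was at 3.4, 2.13, 3.01 and 2.40 CPM in control cortices and 7.02, 8.05, 6.92 and 9.48 CPM in control striata (1.54, SE 0.16, adjusted p = 4.9e-05). Kcng4 was at 1.65, 2.84, 2.42 and 2.02 CPM in control cortices and 7.15, 2.92, 3.89 and 6.16 CPM in control striata (1.16, SE 0.28, adjusted p = 0.0075). It was lowest in control striata 63 and 64, and in Trrap-FBΔ striata it was at 3.76, 6.11, 3.78 and 6.27 CPM. All 4 Kcnq genes were lower in the striatum in both genotypes, by a median of -0.74 in controls. The marker levels given earlier apply to all these tissue differences.

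**Figure D5:**
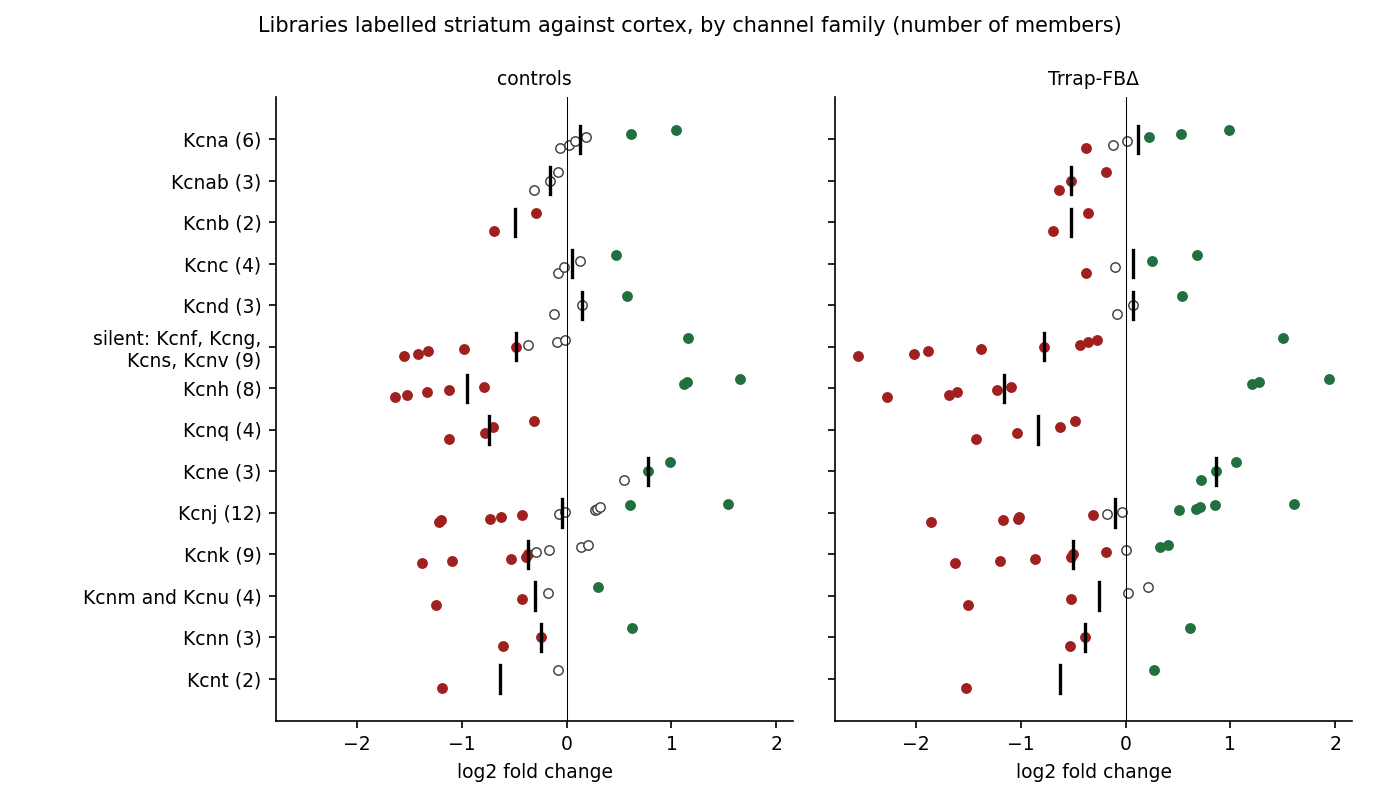
Log2 fold change of each member in libraries labelled striatum against cortex, by channel family, for control and Trrap-FBΔ mice. Red points were called lower in the striatum, green points higher and open points not called, and vertical bars are family medians. The Kcnq family lies left of 0, and the Kcnh family splits into 5 lower and 3 higher members in both panels.

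Per kilobase of merged exons, Kcnj10 had the highest level of all members in control cortices (50.9 ± 3.25 CPM per kilobase, SD, n = 4), followed by Kcnj9 (36.3 ± 2.81), Kcnj4 (32.7 ± 5.08), Kcnk1 (32.6 ± 4.32) and Kcnf1 (32.4 ± 1.34). Apart from the gap below Kcnj10, these levels lay within their spread of the next. In control striata, Kcnj10 (63.5 ± 12.5) was followed by Kcnd2 (28 ± 1.89) and Kcnk1 (22.5 ± 1.18). In Trrap-FBΔ cortices, Kcnj4 at 40.9 CPM per kilobase stood above Kcnj10 at 33.8. As a family, Kcnj summed to 169 ± 5.97 CPM per kilobase in control and 156 ± 4.48 in Trrap-FBΔ cortices, and to 136 ± 12.8 and 113 ± 6.56 in the striatal groups.

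Of 26 genes for channel partners and regulators, 24 were expressed enough to be tested. In the cortex 8 were called lower and 2 higher, where 17.6% and 15.7% of all genes tested were. In the striatum 7 were called lower and 3 higher, where 15.8% and 14.4% of all genes were. The median log2 fold changes were -0.07 and -0.05. Lgi1, a secreted partner of the Kcna complex, was lower in both tissues (-0.41 and -0.69, adjusted p = 9.5e-05 and 8.4e-05), as was Cntn2, which clusters Kcna channels beside the node of Ranvier (-0.57 and -0.38, adjusted p = 0.00013 and 0.018). Lrrc55, an auxiliary subunit of BK channels, was also lower in both (-0.53 and -0.26, adjusted p = 5.3e-05 and 0.033), whereas Amigo1, an auxiliary subunit of Kcnb channels, was higher in both (0.16 and 0.22, adjusted p = 0.049 and 0.0053). Ank3 and Snx27 were the other partners lower in both. Kcnip3 was higher in the cortex (0.36, adjusted p = 0.00026), and Kcnip1 in the striatum (0.24, adjusted p = 0.03).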

How the data were processed

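RNA of 16 tissue samples was sequenced from stranded mRNA libraries. Per the submitters' processing notes and the study's methods, the authors used bcl2fastq 1.8.4, aligned single-end reads to GRCm38 with STAR 2.5.4b and counted them by strand on Ensembl 92 genes with featureCounts 1.5.0. The deposited values are these raw counts, without normalization or filter. Groups came from the genotype and tissue labels, and every column matched 1 sample. Symbols, biotypes and exon lengths came from GENCODE M21 of the same build, and 53706 of 53801 identifiers matched.

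Counts were tested in R 4.3.3 with edgeR 4.0.16 (filterByExpr, TMM, quasi-likelihood test, Benjamini-Hochberg adjustment over all genes), with 4 against 4 libraries per comparison and the interaction over 16. All 72 members were tested in every comparison. The steps were tested on simulated data. DESeq2 1.42.0, limma-voom (limma 3.58.1), other scalings, no filter, sex, the mouse as a block and leaving out each library were run as alternatives. Some were chosen after seeing the data, namely the cortical marker covariate, leaving out pairs of controls and the region markers.

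The rule for named genes took the 5 largest and 5 smallest falls or rises among members called in both tissues, the 4 smallest p of the interaction and the 4 largest tissue differences each way. They are given by library, in some cases for part of the groups, or, for Kcnd1 and Kcnf1, by range. Other members, such as Kcnj10, Kcnj4 and Kcnk13, were chosen after their values were seen. Some members are counted but not reported by name here. The members and lists were chosen with earlier results of these data known. Protein names in the text are background. Each library holds at least 28743866 counts, so counting error is small beside the spread between mice for all but the lowest members. Libraries of 1 mouse number come from the same animal. Their deviations from group means correlated with r of 0.0845 to 0.244 in 7 pairs, 6 of them over 0.1. In 25 pairs of different mice, r was -0.173 to 0.123, with a median of -0.0851 and 2 pairs over 0.1. Taking deviations from group means can itself lower the values of different mice.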

Additional observations from a re-analysis of the deposited data

Results flagged for a closer look

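For the 19 members picked by the rule for named genes, the highest and lowest library of each group of 4 was compared with the others by Dixon's criterion, in 76 groups. Other members were not compared. Chance flags about 1 in 20 groups, and 7 stood apart. In Trrap-FBΔ cortices, mouse 61 was highest for Kcng1 (48.9 CPM) and Kcnk4 (9.59 CPM), still below every control, and mouse 57 was lowest for Kcnq3 (267 CPM). In Trrap-FBΔ striata, mouse 57 was highest for Kcnh4 (6.28 CPM) and mouse 60 lowest for Kcnh5 (6.53 CPM). In control striata, mouse 64 was lowest for both Kcnc2 (65 CPM) and Kcnj3 (67.2 CPM), and this library also had the highest sum of striatal projection neuron genes, 1497 CPM, where the other control striata had 305 to 664 CPM. Without it, the striatal calls of Kcnc2 and Kcnj3 held. The genotype effect on Kcnv1 differed between the tissues by -1.0 on the log2 scale (interaction in edgeR, adjusted p = 0.042), a call that 14 of 23 alternatives did not make.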

How the results depend on the processing

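The members called numbered 32 for the cortex, 31 for the striatum, and 45 and 62 between tissues in controls and Trrap-FBΔ mice. Under the alternatives of normalization, filter, tool, sex and samples these counts stayed within 1.5 times of those values, except in the striatum with the cortical marker level as a covariate, where 18 members were called. With 1 library left out they ranged from 24 to 32, 25 to 33, 42 to 46 and 60 to 62. The lowest counts otherwise were 23 in the cortex without control cortices 58 and 63, and 23 in the striatum with sex as a covariate. A minimum of 10 or 200 counts gave 79 or 61 members, of which 33 or 30 had a cortical call and 32 or 28 a striatal one. The interaction was called for 1 member, for 0 with upper-quartile normalization, for 5 with DESeq2, for 2 with the mouse as a replicate block and for 0 with the block and sex in each tissue. With 1 library left out, it was called for 0 to 2 members. The block changed the count of tissue calls from 45 to 44 in controls and left it at 62 in Trrap-FBΔ mice. No member named in the text reversed its direction in a call. With the longest transcript as length, 7 to 9 of the 10 highest members per group stayed among the 10 highest. The cause of these changes was not tested. The cortical marker covariate differs between the genotypes and leaves fewer degrees of freedom. The sexes are unequal between the groups, and 4 mice a group limit the precision.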

Other observations

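Genes of immature neurons and markers of several non-neuronal cell types were lower in Trrap-FBΔ mice beside the channel genes. Bulk RNA does not show which neurons hold the immature neuron genes, and excitatory neurons may be among them. Of 7 genes of immature neurons, 6 were lower in cortices and 5 in striata, with medians of -0.86 and -0.73 on the log2 scale. All 4 genes of oligodendrocyte precursors, all 6 of mature oligodendrocytes and all 5 of endothelial cells were lower in the cortex. In the striatum, this held for 2 genes of precursors and 2 of endothelial cells. Of the 5 mural cell genes, 3 and 1 were called lower, and of the 6 microglial genes 6 and 5. Of 7 inhibitory interneuron genes, 1 was higher in each tissue and 1 lower in the striatum. The summed level of mature oligodendrocyte genes was 3146 to 9336 CPM in control striata and 3925 to 6883 CPM in Trrap-FBΔ striata, and 1763 to 3121 and 1294 to 2000 CPM in the cortical groups. None of these lists was tested as a set, and the part of these cells in the levels of channel genes was not tested.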
